A study of Mus musculus with 8 samples.

Results

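Endothelin, nitric oxide, angiotensin, prostacyclin and the calcitonin gene-related peptide (CGRP) family set the tone of lung vessels, and 8 genes of these systems were examined here in the tips of secondary alveolar septa and in whole lung of neonatal mice. The genes were Edn1, Ednra, Ednrb, Nos3, Ace, Agtr2, Ptgis and Calcrl, and every probe set whose only annotated symbol was one of them was taken. Of the 8 genes, 7 had a probe set, with 11 probe sets in all, out of 8251 genes that the annotation names singly. No probe set was named for Ednra, the endothelin receptor of smooth muscle, and it was not analysed here. Only 4 genes, Edn1, Ednrb, Ace and Ptgis, each with 1 probe set, were bright enough to be tested, and none of these 4 differed between tips and lung beyond the spread of the RNA samples. Among other genes of the same systems, the endothelin-converting enzyme gene Ece1, the prostacyclin receptor gene Ptgir, the thromboxane synthase gene Tbxas1 and the angiotensin-(1-7) receptor gene Mas1 were higher in tips, and the prostaglandin-degrading enzyme gene Hpgd and the (pro)renin receptor gene Atp6ap2 were lower. Of these, Ptgir, Tbxas1 and Atp6ap2 did not pass under several other processing settings, and Ece1 did not pass with median centring. Crcp, of CGRP receptor signalling, and the kinin B1 receptor gene Bdkrb1 were also higher in tips. Neither passed with quantile normalization, median centring or cyclic loess. Of the 33 other genes tested, 18.2% rose and 6.06% fell, against 14.6% and 15.1% of all genes tested.

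Septal tips came from lungs of many C57/Bl6 neonates at day 6, where 10000 of them were lifted out of tissue sections by laser capture, which cuts chosen spots under a microscope. Whole lung RNA came from pooled lung tissue of C57/Bl6 neonates of the same age, and no treatment or allele is named for either group. The work was done in experiment 1 and again in experiment 2 with other litters, and each RNA was put on 2 Affymetrix arrays at different times, array 1 and array 2. The 8 arrays thus hold 4 RNA samples, with 2 for each group. Groups follow the sample titles, since the tip samples are described as whole lung in another label. An amplification step is written for all tip arrays but for only 1 of the 4 lung arrays, while the series' design text has both RNAs amplified in parallel.

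In the lung, endothelial cells make endothelin-1 from a precursor that a converting enzyme cleaves. The peptide constricts vessels through the A receptor of smooth muscle, while the B receptor on endothelium clears it and releases nitric oxide and prostacyclin. Endothelial nitric oxide synthase and prostacyclin synthase make relaxing signals that act through cyclic GMP and cyclic AMP. Angiotensin-converting enzyme is abundant on lung capillary endothelium and makes angiotensin II, for which Agtr2 encodes one receptor. Calcrl encodes the receptor for CGRP and adrenomedullin, which relax vessels, and it works only with a partner protein of the Ramp family.

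Signals are the authors' MAS5 intensities on a linear scale, brought here to a common trimmed mean. Background was the 95th percentile of 19 bacterial and yeast control probe sets on each array. It lay between 487 and 1244 on tip arrays and between 314 and 568 on lung arrays, and the median of these control probe sets lay between 121 and 332 on tip arrays and between 67 and 97 on lung arrays. The highest background, 1244, was that of array 2 of the tip RNA of experiment 1, and results are also given without that array. Each difference is given on the log2 scale as tips minus lung, taken after an offset of 150.1 was added, so that those of dim probe sets are understated. Adjusted p-values are from limma over the 7453 probe sets tested, with 2 RNA samples per group, and the threshold was 0.05. Of the probe sets tested, 28.3% passed, 14.5% higher and 13.7% lower in tips, and the median difference of all of them was 0.35. Fewer cells of a type and less RNA per cell cannot be told apart in such bulk samples.

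**Figure D1:**
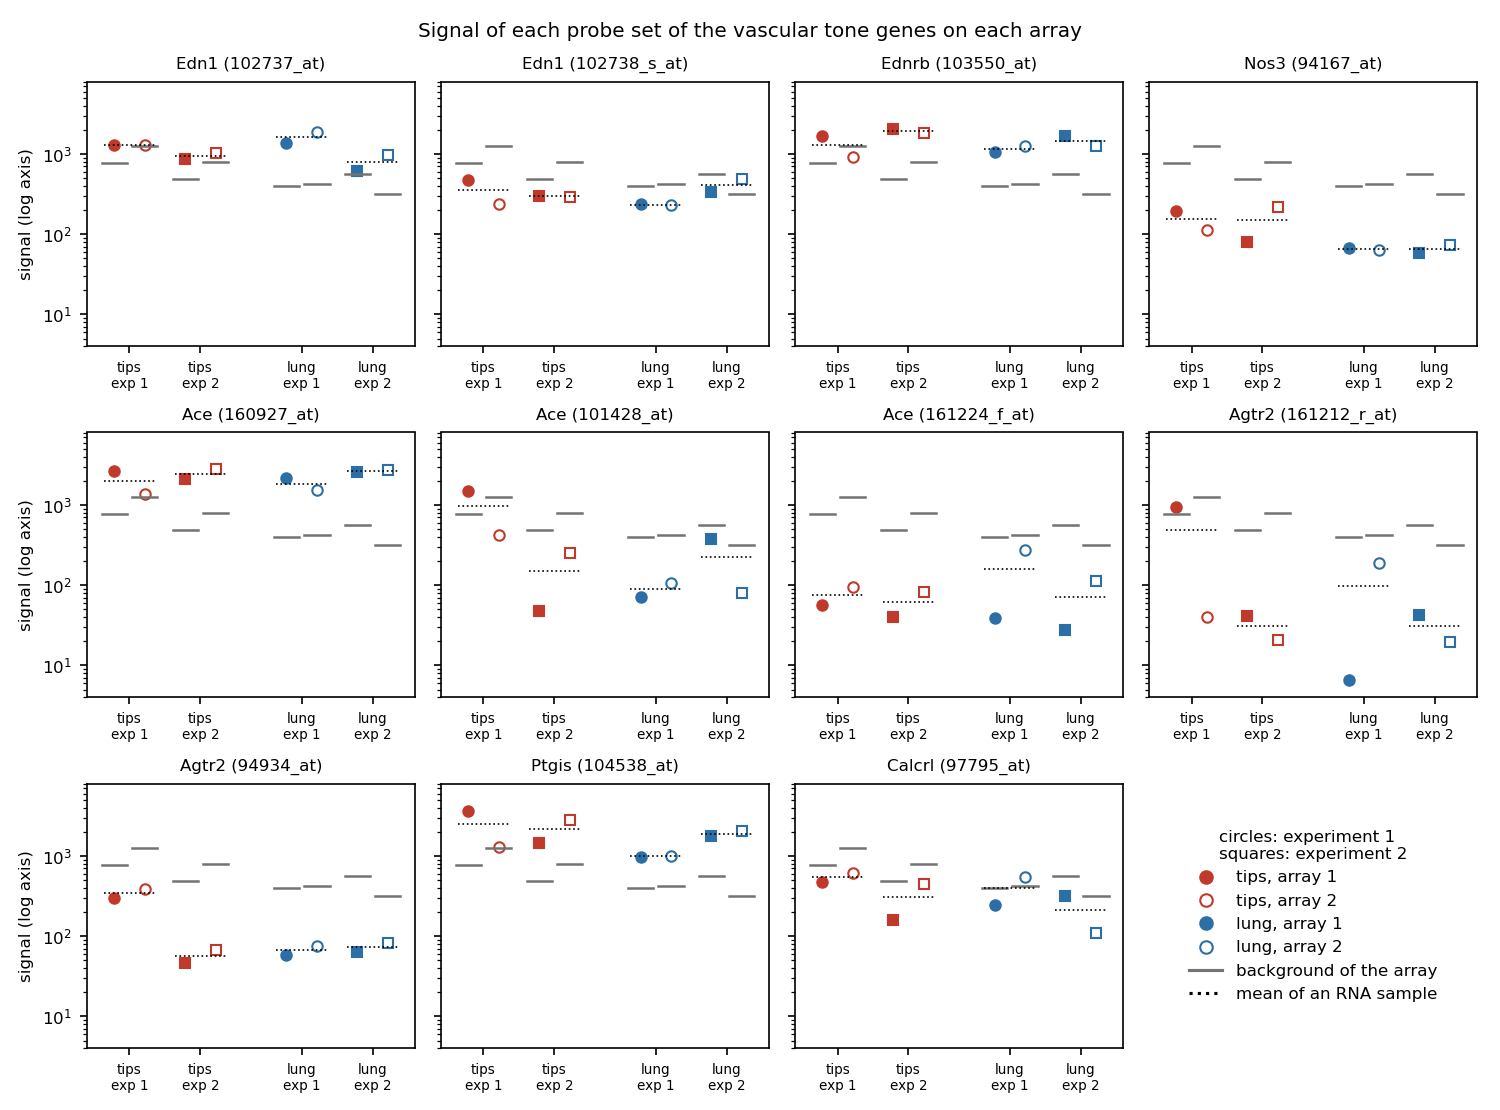
Signal (log axis) of each of the 11 probe sets on each array, tips left and lung right in each panel, with array 1 filled, array 2 open, the background of each array as a grey dash and the mean of the arrays of each RNA sample as a dotted line. Edn1 (102737_at), Ednrb, Ace (160927_at) and Ptgis lie mostly above background with overlapping groups, and the other 7 probe sets lie at or below it on at least 7 of the 8 arrays.

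Edn1, the gene of the endothelin-1 precursor, gave nearly the same mean in tips and lung, within wide error. Its brighter probe set, 102737_at, had signals of 1289 and 1299 in tips of experiment 1 and of 868 and 1016 in tips of experiment 2, against 1371 and 1861 in lung of experiment 1 and 621 and 968 in lung of experiment 2. Both groups were higher in experiment 1, and the ranges overlapped. The mean signal was 1118 ± 249 in tips and 1205 ± 581 in lung (SD, n = 2 RNA samples each). The log2 difference was -0.02 ± 0.43 (limma adjusted p = 0.972), with a 95% interval of -0.99 to 0.94. Experiment 1 gave -0.28 and experiment 2 gave 0.23, and within each experiment both array pairs had the same sign. The gap between experiments, 0.41 in tips and 0.91 in lung on the log2 scale, was larger than the gap between tips and lung. The other Edn1 probe set, 102738_s_at, ranged from 238 to 476 in tips and from 228 to 481 in lung. It was above background on 0 tip arrays and 1 lung array, so it gave no measured fold.

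Ednrb, the gene of the endothelin B receptor, had signals of 1690 and 927 in tips of experiment 1 and of 2037 and 1808 in tips of experiment 2. In lung they were 1063 and 1254 in experiment 1 and 1665 and 1257 in experiment 2. The highest signals were those of the tip RNA of experiment 2, but the lowest was also from a tip array, the one with the highest background, and the groups overlapped. The mean was 1616 ± 434 in tips and 1310 ± 214 in lung (SD, n = 2). On the log2 scale they differed by 0.24 ± 0.37 (limma adjusted p = 0.636), with a 95% interval of -0.59 to 1.07. The sign was the other way with quantile normalization, median centring and cyclic loess, at -0.18, -0.30 and -0.10.

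RNA of Ece1, the gene of the enzyme that releases endothelin-1 from its precursor, was higher in tips. Ece1 had signals of 4775, 4431, 4424 and 5370 in tips, against 914, 1154, 2070 and 2059 in lung. Every tip array lay above every lung array, as for 22.1% of all probe sets that are not controls. The mean signal was 4750 ± 208 in tips and 1549 ± 729 in lung (SD, n = 2), and the log2 difference came to 1.60 ± 0.37 (adjusted p = 0.0143, limma). Experiment 1 gave 2.01 and experiment 2 gave 1.18. Ece1 passed under 20 of 22 alternatives, and it did not pass with median centring (1.06, limma adjusted p = 0.0822). With the lung RNA of experiment 1 or 2 left out the difference was 1.14 and 2.05. Ece1 was the only other endothelin gene tested: of 6 listed, 4 had a probe set. Edn2 and Edn3, the genes of the related peptides, and Mme, of a peptidase that degrades endothelin, lay under the filter on dim probe sets.

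Nos3, the gene of endothelial nitric oxide synthase, was below background on all 8 arrays, and no fold is given. Its signals were 194 and 114 in tips of experiment 1 and 79.8 and 217 in tips of experiment 2, against 67.9 and 64.2 in lung of experiment 1 and 59.0 and 72.5 in lung of experiment 2. Every tip array thus lay above every lung array, although all lay below background. Of the 2125 probe sets that were below background on all arrays, 25% had every tip array above every lung array, and 0.188% had the opposite order. Over all 12422 probe sets that are not controls the shares were 22.1% and 11.2%. The median signal of the control probe sets was also higher on every tip array than on every lung array, as given above, and its part in the order of Nos3 was not tested. Without the filter on dim probe sets, Nos3 gave 0.45 ± 0.27 (limma adjusted p = 0.248).

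None of the other genes of nitric oxide and cyclic GMP signalling passed the threshold, which 29.7% of all genes tested passed in either direction. Of 23 listed, 13 had a probe set and 7 were tested, with differences between -1.33 and 1.16 and a median of -0.66, against 0.31 over all 5642 genes tested. Cav1, the gene of caveolin-1, a membrane protein that binds and inhibits the synthase, had a mean signal of 17584 ± 1211 in tips and 32461 ± 1078 in lung (SD, n = 2). All tip arrays, at 15160 to 19785, lay below all lung arrays, at 30552 to 34483, as for 11.2% of all probe sets that are not controls. The log2 difference was -0.88 ± 0.32 (limma adjusted p = 0.0637). It was -0.13 with quantile normalization, -0.02 with cyclic loess and -1.43 with median centring, where it passed (adjusted p = 0.0159). At both ends of the list, chosen after their values were seen, stood Pts and Nos2. Pts, the gene of an enzyme for the cofactor of the synthase, gave -1.33 (limma adjusted p = 0.0654, or 0.0334 in the fit blocked by experiment). Nos2, the inducible synthase gene, gave 1.16 (limma adjusted p = 0.0818). Pts was above background on 2 tip arrays and 4 lung arrays, and Nos2 on only 2 tip arrays and 1 lung array.

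Ace, the gene of angiotensin-converting enzyme, was well above background at 1 of its 3 probe sets, where tips and lung had nearly the same mean. Probe set 160927_at had signals of 2652 and 1369 in tips of experiment 1 and of 2084 and 2783 in tips of experiment 2. In lung it had 2157 and 1539 in experiment 1 and 2564 and 2715 in experiment 2. The ranges coincided almost fully, with the lowest and the highest array both from tips. The means were 2222 ± 299 in tips and 2244 ± 560 in lung (SD, n = 2). The log2 difference was -0.03 ± 0.34 (limma adjusted p = 0.954), with a 95% interval of -0.79 to 0.73.

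The 2 other Ace probe sets were dim. For 101428_at the tip signals were 1501, 419, 47.4 and 250, and the lung signals were 70.7, 107, 374 and 79.2. Only array 1 of the tip RNA of experiment 1 was above background, and array 2 of the same RNA was not. Probe set 161224_f_at was below background on all arrays, at 40.1 to 94.3 in tips and 27.9 to 278 in lung.

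Agtr2, the angiotensin II type 2 receptor gene, was not measurable at either probe set. Probe set 94934_at had 297 and 390 in tips of experiment 1 and 45.8 and 68.1 in tips of experiment 2, against 58.6 and 76.0 in lung of experiment 1 and 63.9 and 81.1 in lung of experiment 2. Both tip arrays of experiment 1 stood above the rest, yet all 8 arrays were below their background. Probe set 161212_r_at gave 930, 39.8, 41.5 and 20.8 in tips and 6.5, 187, 42.6 and 19.3 in lung. As for Ace 101428_at, only array 1 of the tip RNA of experiment 1 was above background.

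In each direction 1 further gene of the angiotensin system passed, out of 6 tested. That is 16.7% each way, near the 14.6% higher and 15.1% lower of all genes tested. Mas1, the gene of the receptor for angiotensin-(1-7), had signals of 4594, 4162, 2832 and 3137 in tips, against 865, 1252, 1042 and 767 in lung. All its tip arrays lay above all lung arrays, as for 22.1% of all probe sets that are not controls. The means were 3681 ± 985 in tips and 981 ± 109 in lung (SD, n = 2), and the log2 difference came to 1.75 ± 0.34 (adjusted p = 0.00742, limma). Mas1 passed under all 5 scalings and under 20 of 22 alternatives. Leaving out either lung RNA, that of experiment 1 or 2, gave 1.85 and 1.66. Atp6ap2, which encodes the (pro)renin receptor, a subunit associated with the proton pump of acid organelles, had 406, 1048, 186 and 122 in tips, against 3103, 1837, 1740 and 1283 in lung.

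All 4 tip arrays of Atp6ap2 were below background, so that lung was at least 2.41-fold brighter with tips set at their background, and it fell in tips (limma adjusted p = 0.0224). It did not pass with a common floor at 1244 (-0.55, limma adjusted p = 0.188) or at 792 (-1.03, adjusted p = 0.056). On array 2 alone it did not pass either (-1.56, limma adjusted p = 0.149). With the lung RNA of experiment 1 or 2 left out the difference was -1.73 and -2.36. Atp6ap2 passed under 16 of the 21 alternatives in which it was tested. Agt, the angiotensinogen gene, differed by 0.74 ± 0.56 (limma adjusted p = 0.329), with 1.58 in experiment 1 and -0.11 in experiment 2. It was above background on only 1 tip array and 2 lung arrays, and its mean log2 value, 9.25, was just over the filter at 9.20. Its signals were 600, 1783, 426 and 306 in tips and 467, 112, 463 and 346 in lung, and without the tip RNA of experiment 2 the difference was 1.35. No probe set was named for Agtr1a, the type 1 receptor gene, and it was not analysed here.

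Ptgis, the gene of prostacyclin synthase, gave the largest difference of the 4 tested genes, but the arrays of each tip RNA disagreed. Its signals were 3677 and 1303 in tips of experiment 1 and 1440 and 2839 in tips of experiment 2, against 977 and 1008 in lung of experiment 1 and 1771 and 2033 in lung of experiment 2. The high tip arrays, 1 in each experiment, lay above all lung arrays, and the other tip array of each experiment lay inside the lung range. The means were 2315 ± 248 in tips and 1447 ± 643 in lung (SD, n = 2). The log2 difference was 0.57 ± 0.38 (limma adjusted p = 0.272), with a 95% interval of -0.29 to 1.42. It was 1.05 in experiment 1 and 0.09 in experiment 2, with array pairs between -0.27 and 1.76. Without the lung RNA of experiment 1 it was 0.15, without that of experiment 2 it was 0.99, and with median centring it was 0.03, none past the threshold.

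**Figure D2:**
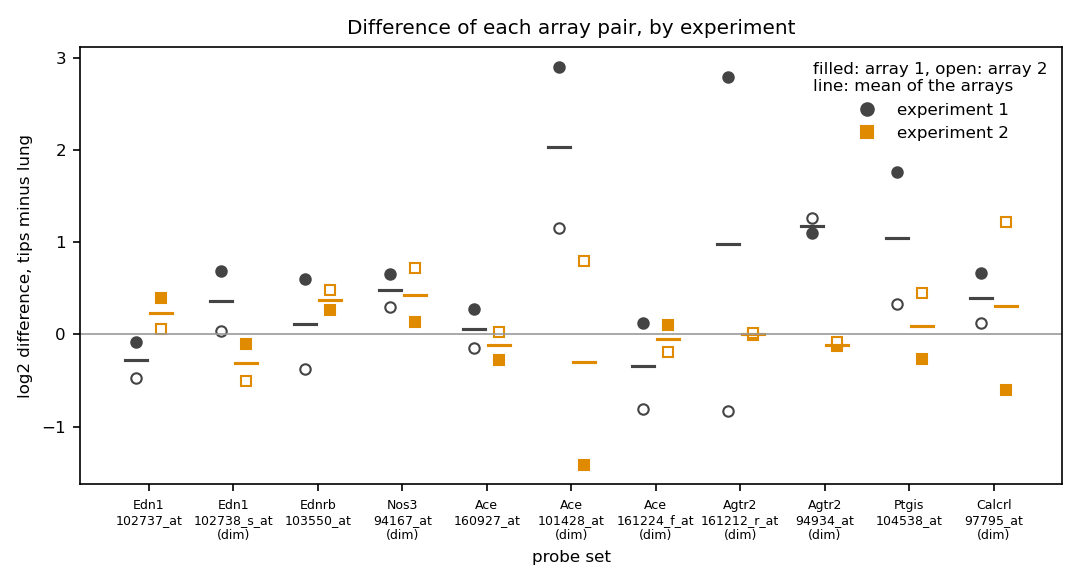
Log2 difference of tips minus lung for each pair of arrays (tip and lung array of the same experiment and number) for each of the 11 probe sets, with experiment 1 as circles, experiment 2 as squares, array 1 filled, array 2 open and the mean of each experiment as a line. Probe sets marked dim were under the filter. Edn1 102737_at is negative in experiment 1 and positive in experiment 2, and array 1 of experiment 1 gives the highest values, 2.90 for Ace 101428_at, 2.79 for Agtr2 161212_r_at and 1.76 for Ptgis.

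Of 10 further prostanoid genes tested, 2 rose and 1 fell, that is 20% and 10%, against 14.6% and 15.1% of all genes tested. Ptgir, the gene of the receptor for prostacyclin, had signals of 887, 1418, 887 and 1493 in tips, all above background, against 297, 250, 285 and 149 in lung, all below it. With lung set at its background, tips were thus at least 2.74-fold brighter (limma adjusted p = 0.0207). It did not pass with quantile normalization (1.24, adjusted p = 0.0779), median centring (1.18, 0.0868) or cyclic loess (1.19, 0.0789), nor with a common floor at 1244 (0.10) or 792 (0.45). Without the array of highest background the limma adjusted p was 0.0618, and on array 1 alone 0.176. With the lung RNA of experiment 1 or 2 left out the difference was 1.84 and 1.61. Ptgir passed under 12 of the 21 alternatives in which it was tested.

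Tbxas1, the gene of thromboxane synthase, which makes a constricting prostanoid, had 2265, 2542, 1517 and 1806 in tips, against 201, 157, 1135 and 449 in lung. The means were 2033 ± 525 in tips and 485 ± 434 in lung (SD, n = 2), and the log2 difference came to 2.00 ± 0.52 (adjusted p = 0.0216, limma). It was 2.96 in experiment 1, where both lung arrays lay below background, and 1.04 in experiment 2. Only 2 of the 4 lung arrays were above background. It did not pass with quantile normalization (1.61, limma adjusted p = 0.0601), median centring (1.46, 0.0706) or the floor at 1244 (0.62, 0.126), or on array 1 alone (1.58, 0.127). With the lung RNA of experiment 1 or 2 left out the difference was 1.29 and 2.71. Tbxas1 passed under 17 of 22 alternatives. Hpgd, the gene of the dehydrogenase that inactivates prostaglandins, had 1056, 984, 2096 and 1834 in tips, against 13223, 13123, 11028 and 10796 in lung.

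Hpgd gave the largest difference of all genes of these systems that were tested. Its means were 1492 ± 668 in tips and 12043 ± 1598 in lung (SD, n = 2), and it fell by 2.95 ± 0.35 (limma adjusted p = 0.00132). It was -3.51 in experiment 1 and -2.39 in experiment 2, and it passed under all 22 alternatives. The 7 remaining prostanoid genes, among them those of prostaglandin E synthase and the prostaglandin EP2 and thromboxane receptors, differed by -0.73 to 1.05 without passing.

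Calcrl, the gene of the receptor for CGRP and adrenomedullin, was at or below background. Its signals were 473 and 605 in tips of experiment 1 and 157 and 453 in tips of experiment 2, against 242 and 546 in lung of experiment 1 and 317 and 108 in lung of experiment 2. The groups overlapped, and only 1 lung array, at 546, was above background, so no fold is given. Its mean log2 value over all arrays, 8.91, was the closest of the 7 dim probe sets to the filter at 9.20. Of the tested probe sets of Edn1, Ednrb, Ace and Ptgis, the lowest was Edn1 102737_at at 10.30.

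Among the genes of the partner proteins of Calcrl, Ramp3 was below background on all arrays, while Ramp1 and Ramp2 were tested. Ramp1 gave 0.87 ± 0.47 (limma adjusted p = 0.187). Ramp2, which brings the receptor to the cell surface as an adrenomedullin receptor, had signals of 4746, 3130, 1107 and 1854 in tips, against 723, 1214, 533 and 990 in lung. The means were 2709 ± 1738 in tips and 865 ± 146 in lung (SD, n = 2), and the log2 difference came to 1.36 ± 0.47 (adjusted p = 0.0553, limma, but 0.0175 once the experiment was a block). It was 1.88 in experiment 1 and 0.85 in experiment 2. The value rested largely on the tip RNA of experiment 1: it was 0.69 with that RNA left out and 2.03 with the tip RNA of experiment 2 left out. With the lung RNA of experiment 1 or 2 left out it was 1.51 and 1.21. Ramp2 passed under 5 of 22 alternatives. Crcp, whose product takes part in CGRP receptor signalling and is also a subunit of RNA polymerase III, had 1716, 1564, 1457 and 1474 in tips, against 523, 332, 519 and 1007 in lung.

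Crcp passed with a log2 difference of 1.26 ± 0.40 (limma adjusted p = 0.0447), was above background on 2 of 4 lung arrays, and passed under 10 of 22 alternatives, not with quantile normalization, median centring or cyclic loess (0.79, 0.72 and 0.81). Without the array of highest background the limma adjusted p was 0.0719. With the lung RNA of experiment 1 or 2 left out the difference was 0.95 and 1.58. Adm, the adrenomedullin gene, was below background on all arrays, at 205, 790, 258 and 204 in tips and 304, 270, 93.3 and 58.3 in lung. Of 6 tested genes of natriuretic peptides, kinins and apelin, 1 rose and 0 fell, that is 16.7% and 0%, against 14.6% and 15.1% of all genes tested. The gene that rose was Bdkrb1, of the kinin B1 receptor. Its mean signal was 2616 ± 190 in tips and 1375 ± 218 in lung (SD, n = 2), and the log2 difference was 0.99 ± 0.32 (limma adjusted p = 0.0479). The lung arrays, at 618 to 2441, overlapped the tip arrays, at 2095 to 3020. It passed under 8 of 22 alternatives, not with quantile normalization, median centring or cyclic loess (0.68, 0.45 and 0.74). Without the array of highest background it did not pass either (0.88, limma adjusted p = 0.11). With the lung RNA of experiment 1 or 2 left out the difference was 1.02 and 0.96.

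**Figure D3:**
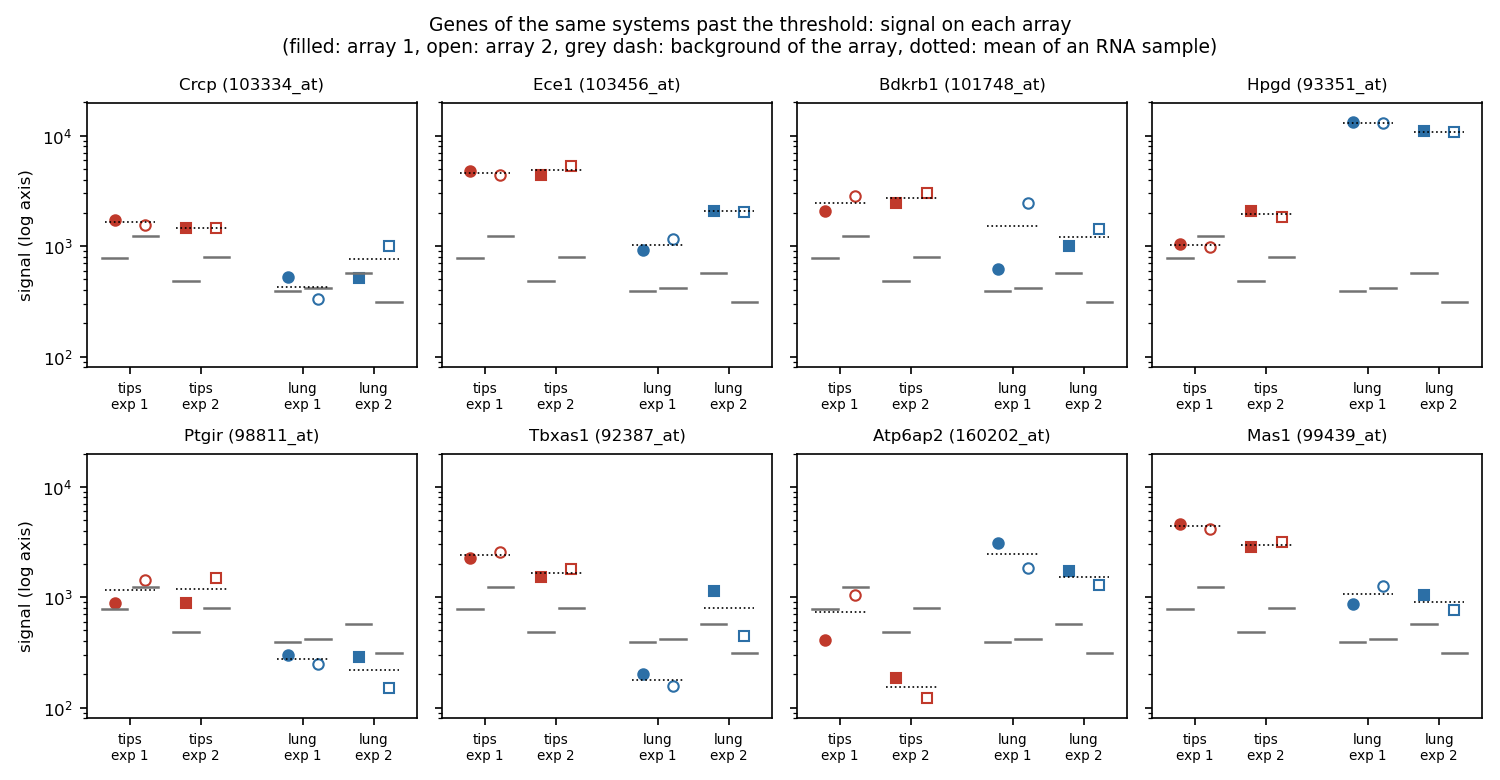
Signal (log axis) on each array of the 8 further genes of these systems that passed the threshold, tips left and lung right, with the background of each array as a grey dash. In 7 of the 8 panels every tip array lies on one side of every lung array, the exception being Bdkrb1. The genes were picked by this same comparison, so their separation is no further evidence. Of all probe sets that are not controls, 22.1% had every tip array above every lung array and 11.2% had the opposite order. Ptgir in lung and Atp6ap2 in tips lie below background.

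Counted together, 0 of the 4 tested genes among the 8 passed the threshold of limma, also with the experiment as a block and under all 22 alternatives, and 0 had an unadjusted p under 0.05. Of the other genes of these systems 6 of 33 rose and 2 fell, that is 18.2% and 6.06%, against 14.6% and 15.1% of all 5642 genes tested, of which 29.7% passed in either direction. Their median difference was 0.47, against 0.31 for all genes. The intervals of the 4 genes leave room for differences of some size. On the scale with the offset, the 95% interval reached from 0.504-fold to 1.92-fold for Edn1, from 0.666-fold to 2.10-fold for Ednrb, from 0.577-fold to 1.66-fold for Ace and from 0.819-fold to 2.68-fold for Ptgis. Relative to the median of all probe sets tested, the differences were -0.37 for Edn1, -0.11 for Ednrb, -0.38 for Ace and 0.22 for Ptgis. Without the array of highest background the differences of Edn1, Ednrb, Ace and Ptgis were -0.03, 0.43, 0.19 and 0.92, and 3 of the other genes rose and 2 fell.

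**Figure D4:**
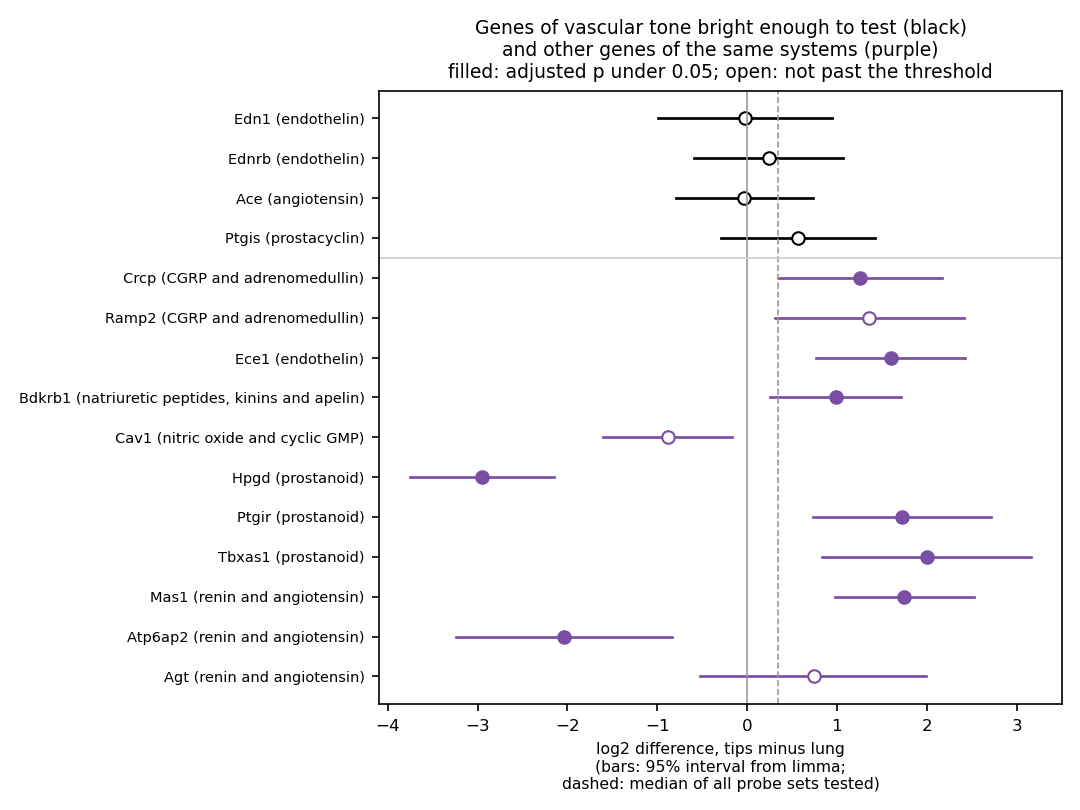
Log2 difference of tips minus lung with its 95% interval from limma for the 4 tested genes (black) and for other genes of the same systems (purple), filled where the adjusted p was under 0.05, with the median of all probe sets tested as a dashed line. The intervals of Edn1, Ednrb, Ace and Ptgis and that of Agt include 0. Those of Hpgd, Atp6ap2 and Cav1 lie below it, and those of Ece1, Ptgir, Tbxas1, Mas1, Crcp, Bdkrb1 and Ramp2 above it. Cav1 and Ramp2 did not pass the threshold.

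Markers of endothelium, the cells that express many of these genes, moved in both directions. Of 15 endothelial genes tested, 6 rose and 2 fell, that is 40% and 13.3%, against 14.6% and 15.1% of all genes tested, and 0 were below background on all arrays. Those that fell, named here after their values were seen, were Emcn, a surface sialomucin of endothelium (-1.64, adjusted p = 0.00591), and Tek, the angiopoietin receptor gene (-1.72, adjusted p = 0.00436). The summed signal of the 15 genes ranged from 393785 to 405309 on tip arrays and from 121092 to 167516 on lung arrays, and without Eng, the brightest, from 83227 to 119332 on tip arrays and from 67274 to 73202 on lung arrays. Pecam1, an adhesion molecule of endothelial junctions, had 3707 ± 961 in tips and 1282 ± 105 in lung (SD, n = 2) and rose by 1.41 ± 0.33 (limma adjusted p = 0.0156). Cdh5, the cadherin of these junctions, gave 0.48 (adjusted p = 0.231) and Kdr, a receptor for vascular endothelial growth factor, 0.05 (0.921). Of 4 genes of capillary endothelium marked by Car4, 1 rose and 0 fell (25% and 0%). Their sums were 19870 to 23652 on tip arrays and 11070 to 14235 on lung arrays. Without Tbx2, the brightest, they were 9756 to 11999 on tip arrays and 9527 to 12063 on lung arrays. Ramp2 and the apelin gene Apln, counted among these markers, were also counted among the genes of these systems. The part of endothelial content in the values of Edn1, Ednrb, Ace and Ptgis was not tested.

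Of 10 genes of smooth muscle and pericytes, the cells that respond to these signals, 4 rose and 0 fell, that is 40% and 0%. Over all 5642 genes tested the shares were 14.6% and 15.1%. The sums were 36319 to 51716 on tip arrays and 18922 to 44758 on lung arrays. Without Acta2, the smooth muscle actin gene and the brightest, the sums were 22816 to 28130 on tip arrays and 9901 to 11878 on lung arrays and no longer overlapped. Acta2 itself gave 0.09 (adjusted p = 0.890). Those that rose, named here after their values were seen, were the contractile and cytoskeletal genes Tagln (1.97), Actg2 (1.59), Myh11 (1.32) and Des (1.10). Type II cell markers numbered 7 tested, of which 2 rose and 0 fell (28.6% and 0%). Among those that rose was the surfactant gene Sftpc at 1.95 (limma adjusted p = 0.00856). Of 5 airway genes 2 rose and 1 fell (40% and 20%). The sums of the airway genes ranged from 41009 to 106025 on tip arrays and from 41948 to 65079 on lung arrays, and without Scgb1a1, the brightest, from 13378 to 25891 on tip arrays and from 28475 to 43585 on lung arrays. Of 8 blood cell genes 2 rose and 1 fell (25% and 12.5%). Their sums were 37803 to 101368 on tip arrays and 24006 to 45215 on lung arrays. Without Hba-a1, a haemoglobin gene and the brightest, they were 25786 to 36202 on tip arrays and 17896 to 23938 on lung arrays, without overlap. Marker counts and sums are given only with the trimmed-mean scaling, where median signals were 787 to 924 on tip arrays and 501 to 572 on lung arrays. With median centring, 271 probe sets of the whole table were higher in tips, in place of 1084. Of all probe sets that are not controls, 22.1% had every tip array above every lung array. The part of smooth muscle and blood content in the values of the 4 tested genes was not tested either.

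Ace, Ednrb and Ptgis correlated positively with each other, and Edn1 negatively with all of them. Over the 8 arrays, which share 4 RNA samples, the Pearson correlation of log2 values was 0.72 between Ace and Ptgis, 0.60 between Ace and Ednrb and 0.56 between Ednrb and Ptgis. For Edn1 it was -0.58 against Ace, -0.54 against Ednrb and -0.33 against Ptgis. The 2 genes most like each were, among 5642, Procr and Bckdhb for Ace (0.929 and 0.927), Hdlbp and Rpl38 for Edn1 (0.918 and 0.917), Gria3 and Arsa for Ednrb (0.967 and 0.942), and Trappc4 and Zbtb7a for Ptgis (0.971 and 0.967). Between 2 and 13 genes had a correlation over 0.9 with each of them.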

How the data were processed

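The deposited values are intensities, 1 signal per probe set and array, made with MAS5 per the submitters' processing notes (version not given in the sources used here). The values show that arrays had already been scaled to nearly one level. The sources used here name no genome build, and positions are left out.

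There were 12488 probe sets in the table, 66 of them controls. In the probe annotation 10855 carried 1 symbol, 396 several and 1237 none, and 10839 symbols were updated through the GRCm38.p6 RefSeq table. Arrays were scaled to a trimmed mean (2% left out at each end) of 1500.9, an offset of 10% of it, 150.1, was added and log2 taken. Probe sets under the 40th percentile of mean log2, 9.20, were left out. Arrays of an RNA were averaged, and tips were set against lung by lmFit and eBayes with an intensity trend (limma 3.58.1, R 4.3.3) and Benjamini-Hochberg adjustment, with 2 residual and 7.05 prior degrees of freedom. The spread rests on RNA samples of different litters, and their number limits the precision. The median standard error was 0.40. A group below background on all its arrays has only a bound: its arrays were taken at their background or, where higher, their own signal, and the fold of the brighter group over their mean is a lower limit. The fit was tested on simulated data.

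The experiment number pairs tips and lung, because the design text has them processed in parallel. The deviations of tips and lung of the same experiment correlated at 0.0452. A fit with the experiment as a block passed 2452 probe sets, against 2106 without it, and 2098 passed in both. Probe sets ending in s_at, f_at or r_at can share sequence with other transcripts.

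The genes and lists were chosen with earlier results of these data known. Genes named beside the 8 were, per system, up to 4 past the threshold by smallest p, with Ece1, Agt, Agtr1a, Ptgir, Adm, Ramp2 and Cav1 in any case, a few cell markers, and the 2 most correlated genes. Where a gene has several probe sets, counts use the brightest one tested.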

Additional observations from a re-analysis of the deposited data

Results flagged for a closer look

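In the tips, array 1 of experiment 1 stood apart from the other 3 arrays for Agtr2 161212_r_at, at a signal of 930 against 20.8 to 41.5. The gap was 0.938 of the whole range of log2 values. Of 44 sets of 4 arrays examined, this was the only one past the critical value for 4 values, where chance alone gives about 1 in 20.

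For 4 probe sets both array pairs of experiment 1 went one way and both of experiment 2 the other, and these differences were not tested, since each experiment holds 1 RNA sample per group. Edn1 102737_at gave -0.28 in experiment 1 and 0.23 in experiment 2, while Edn1 102738_s_at gave 0.36 and -0.31. The 2 probe sets of this gene thus ran in opposite directions in both experiments, the second mostly below background. Agtr2 94934_at gave 1.18 and -0.11, below background throughout. Agt gave 1.58 and -0.11, above background on only 1 tip array and 2 lung arrays.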

How the results depend on the processing

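None of the 4 tested genes passed under any of 22 alternatives, but the sign of small differences turned. Edn1 turned on array 1 alone (0.16), in experiment 2 (0.23) and when RNA samples were left out (-0.48 to 0.43). Ednrb turned with quantile normalization (-0.18), median centring (-0.30) and cyclic loess (-0.10) and when RNA samples were left out (-0.04 to 0.52). Ace turned in experiment 1 (0.06), without the array of highest background (0.19, added after seeing the data) and when RNA samples were left out (-0.28 to 0.22). Over all probe sets, 1084 were higher and 1022 lower in tips. Another scaling moved the median difference and the split: quantile normalization gave 0.03 with 608 higher and 1020 lower, median centring -0.19 with 271 and 1512, and cyclic loess 0.06 with 814 and 1138. With the replicate block 1295 were higher and 1157 lower, and 7 further genes of the systems rose and 3 fell, in place of 6 and 2, Ramp2 and Pts being added. Array 1 alone gave 1263 in all and 533 higher, and array 2 alone 686 higher. A floor at the highest background, 1244, gave 826 probe sets, 255 higher and 571 lower. Leaving out 1 RNA sample gave 424 to 3301 probe sets, 93 to 1838 higher and 331 to 1463 lower, and of the further genes 0 to 11 rose and 1 to 4 fell. These further genes numbered 2 higher with quantile normalization, 1 higher and 5 lower with median centring, 3 higher with cyclic loess, 1 lower with the filter at the 60th percentile, 2 higher and 1 lower with the floor at 1244, 2 higher on array 1 alone, 3 higher and 1 lower with a floor at 792 and 3 higher without the array of highest background, the last settings added after seeing the data. The causes were not tested. Signal over background limits Nos3, Agtr2 and Calcrl and the dimmer probe sets of Edn1 and Ace.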
